A study of Mus musculus with 15 samples.

Results

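Ventricular RNA was compared between mice given angiotensin II (AngII) together with oleic acid (OA) and mice given AngII alone. Both groups were wild-type C57BL/6 mice, 10 weeks old. The AngII mice carried a pump under the skin with an output of 1000 ng/kg/min of the peptide. With the same pump, the other group also received OA at 160 mg/kg, in 0.3 mL per mouse each day. A vehicle group, given saline, served as the baseline. The labels do not state the route of OA, the length of treatment or whether the AngII mice received a carrier for OA. Each group had 5 libraries, which the labels call biological replicates, so the comparison used 10 of the 15 libraries. It covered the 13121 of 36653 gene identifiers with a mean of at least 0.5 FPKM (fragments scaled to gene length and to the size of the library) over all 15 libraries.

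AngII acts through a G protein-coupled receptor on vascular, cardiac and stromal cells. Sustained exposure raises blood pressure, and the heart answers with cardiomyocyte growth, re-expression of fetal genes, fibroblast activation and deposition of collagen. OA is the most common monounsaturated fatty acid of the diet. The heart takes it up, esterifies it to glycerol-3-phosphate for storage or oxidises it in mitochondria, and fatty acids also activate PPAR nuclear receptors.

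Some libraries stood apart from the rest. On the first principal component of the 10 libraries, with 41.4% of the variance, AngII replicate 2 lay at 64.8 and the others between -14.7 and 1.05. The summed FPKM of 8 atrial markers was 3178 in AngII replicate 2 and 65.3 to 714 in the other 9, and that of 15 ventricular cardiomyocyte markers was 20006 against 32635 to 42601. The brown fat gene Ucp1 was at 48.7 FPKM in AngII replicate 2 and 21.0 in AngII replicate 4, with no more than 0.368 in the other 8. AngII plus OA replicate 5 was low in remodelling genes. Of 14 fixed remodelling genes, 3 lay above every vehicle library there, against 9 to 12 in the other AngII plus OA libraries and 9 to 13 in the AngII libraries. Neutrophil markers summed to 97.9 FPKM in AngII plus OA replicate 5 and 7.3 to 24.7 in the other AngII plus OA libraries, against 9.3 to 88.0 in AngII, where replicate 2 was highest. For several genes and lists, values without such a library are given beside the result. Libraries held 24.5 to 28.3 M reads in genes.

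No gene passed the test for a difference between AngII plus OA and AngII, and the genes with the smallest p among those whose groups did not overlap included genes of mitosis, basement membrane and secreted proteins with lower values under OA. Of 13121 genes tested with limma on log2(FPKM + 1), 0 (0%) reached an adjusted p (Benjamini-Hochberg) under 0.05, the threshold for a call, and the smallest adjusted p was 0.574. limma voom on recovered reads also called 0. At an unadjusted p under 0.05 limma counted 866 genes (6.6%), 177 higher with OA (1.35%) and 689 lower (5.25%), and voom counted 845. That split depended on the scaling, with 383 genes higher against 326 lower under quantile normalization and 432 against 315 when each library was shifted to 1 median. The count was 480 without AngII plus OA replicate 5 and 1424 without AngII replicate 3, where 1 gene, Rasd1, was called. The median difference over all genes was -0.05, and 8322 genes (63.4%) had the lower mean with OA. This majority also depended on the scaling. Under quantile normalization 6526 genes were lower and 6592 higher, with a median of 0.001. When each library was shifted to 1 median, 6266 were lower and 6855 higher, with a median of 0.009. The median half-width of the 95% interval was 0.298 on the log2 scale, and a p that misses the threshold does not show that values did not differ. In the same fit, AngII against vehicle called 197 genes (1.5%), 166 higher (1.27%) and 31 lower (0.236%). That count ranged from 49 without AngII replicate 5 to 425 without AngII replicate 3. Dropping AngII replicate 4 gave 70, and dropping AngII replicate 1 gave 86. It was 38 with a replicate block, 72 without the filter on low values, and 109 under quantile normalization, 69 of them higher and 40 lower. It was 160 when each library was shifted to 1 median, 103 higher and 57 lower, and 114 when FPKM was rescaled without mitochondrially encoded genes, 77 higher and 37 lower. Calls of single genes against vehicle below are those of the fit with all libraries. AngII plus OA against vehicle called 0 (0%), with 441 (3.36%) at an unadjusted p under 0.05. These comparisons share libraries, so their values are set side by side and not related to each other.

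Values of the 5 AngII and the 5 AngII plus OA libraries did not overlap for 167 genes (1.27%). In 137 of these (1.04%) the AngII plus OA libraries were lower and in 30 (0.229%) higher. Without AngII replicate 2 the counts were 299 and 43, and without AngII plus OA replicate 5 they were 146 and 35. The 24 of these genes with a symbol and the smallest p were taken for description, 17 lower and 7 higher with OA. They were chosen for this separation, so their values describe it. Differences below are AngII plus OA minus AngII in log2(FPKM + 1), which understates the change of genes with low FPKM, and means are given ± SD over 5 libraries. In a bulk sample, fewer cells of a type and less RNA per cell cannot be told apart. Over all genes, 63.4% were lower in mean with OA, 5.25% were lower at an unadjusted p under 0.05 and 1.35% higher at that p. Counts of list members below are to be read beside these shares, which depended on the scaling. The lists were chosen with earlier results of these data known. Some hold genes given for the comparison or picked for separation, so their counts describe the lists and are not independent of that choice.

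Genes of cell division were lower in mean with OA, among them Cdc20, Cdkn3, Ccna2, Nusap1, Tpx2 and Ckap2 of the separated genes. Cdc20 activates the anaphase-promoting complex, the ubiquitin ligase that lets chromosomes part. Cdc20 (ENSMUSG00000006398) read 3.63, 2.41, 1.61, 2.76 and 2.56 FPKM in AngII replicates 1 to 5, and 1.22, 1.22, 1.0005, 1.41 and 0.676 in AngII plus OA replicates 1 to 5. The groups did not overlap. Vehicle lay at 0.859 to 1.96, a range that held 4 of the 5 AngII plus OA libraries, and replicate 5 lay below it. The difference was -0.76 (95% interval -1.09 to -0.43, limma unadjusted p = 0.000176, adjusted p = 0.574), beside 0.66 for AngII against vehicle. It was -0.77 without AngII replicate 2 and -0.68 without AngII plus OA replicate 5. Each value rested on 33 to 179 reads per library in the compared groups.

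Cdkn3, a phosphatase that acts on cyclin-dependent kinases, read 2.30, 2.05, 1.14, 1.59 and 2.22 FPKM in AngII and 0.254, 0.850, 0.919, 0.926 and 0.693 in AngII plus OA, with 5 to 47 reads per library. Ccna2, the cyclin of S phase and mitotic entry, read 1.17, 0.866, 0.728, 0.841 and 1.04 FPKM in AngII and 0.328, 0.549, 0.522, 0.434 and 0.384 in AngII plus OA. All AngII libraries exceeded all AngII plus OA libraries for both genes, and AngII replicate 3 was the lowest AngII library in each. Their differences were -0.73 (95% interval -1.05 to -0.40) and -0.42 (-0.61 to -0.22), beside 0.80 and 0.38 for AngII against vehicle. The spindle proteins Nusap1, Tpx2 and Ckap2 showed the same order. Nusap1 averaged 1.30 ± 0.304 FPKM in AngII and 0.624 ± 0.0980 in AngII plus OA (difference -0.49, 95% interval -0.73 to -0.26). Tpx2, which activates the Aurora A kinase on spindles, averaged 0.887 ± 0.316 and 0.317 ± 0.142 (-0.51, 95% interval -0.79 to -0.23). Ckap2 averaged 1.05 ± 0.410 and 0.411 ± 0.0576 (-0.52, 95% interval -0.82 to -0.22). The plot of 6 mitotic genes by library shows these values with those of vehicle.

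**Figure D1:**
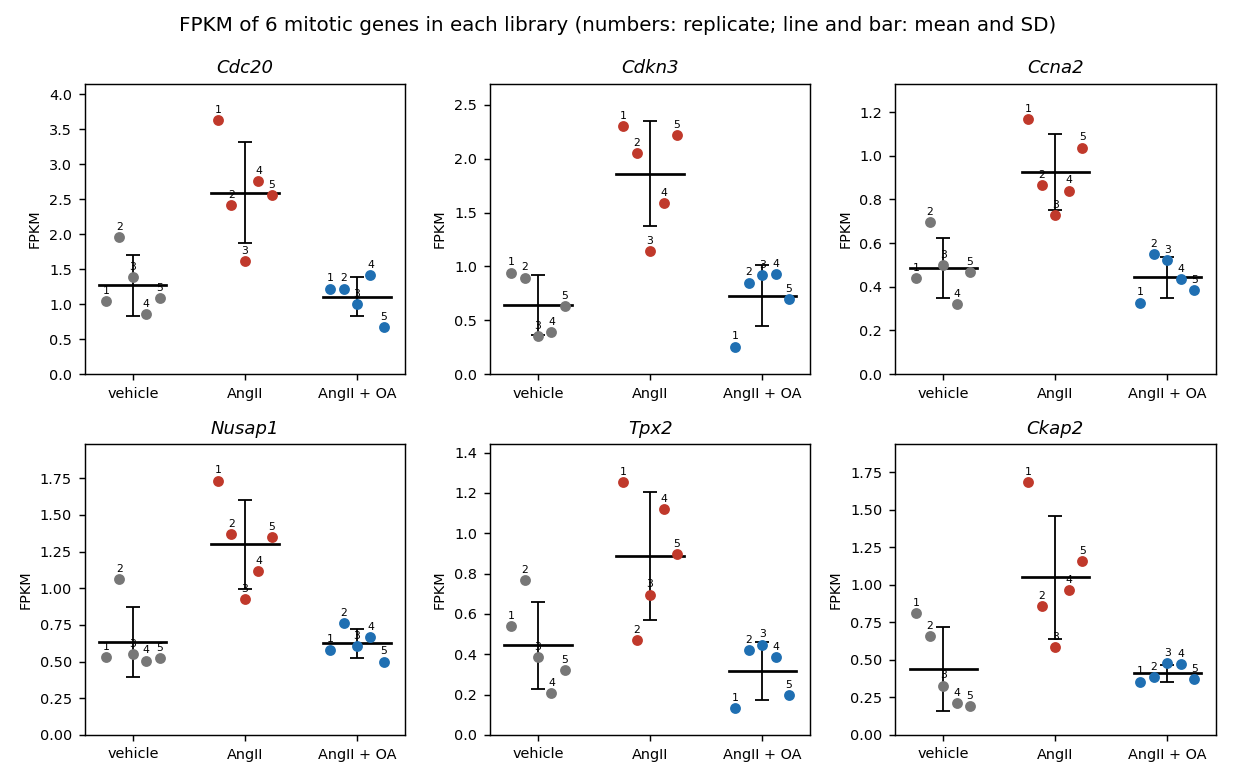
Each panel plots FPKM (linear axis from 0) of 1 mitotic gene in the 15 libraries; points are libraries with their replicate number, lines are group means and bars are SD. The 5 AngII libraries lie above the 5 AngII plus OA libraries in every panel, and AngII replicate 2 or 3 is the lowest AngII library.

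Of 41 genes listed for the cell cycle, 28 passed the filter on low values and 13 did not. The filter took the mean over all 15 libraries, so a gene low elsewhere could pass through its AngII values. Ccna2, Tpx2 and Ckap2 did so, with means under 0.5 FPKM in vehicle and in AngII plus OA. Genes that pass in this way are lower with OA by that choice, which tilts counts of list members to that side. Of the 28, 23 had a lower mean with OA and 5 a higher one, and 16 of the lower ones had an unadjusted p under 0.05, where 5.25% of all genes did. None was called. The 28 hold Cdc20, given for the comparison. Groups did not overlap for 4 of the 28, all lower with OA, where 1.04% of all genes did so. These counts are therefore not separate from the genes picked above. The median difference was -0.33, beside -0.05 over all genes, and it was -0.34 without AngII replicate 2 and -0.27 without AngII plus OA replicate 5. Among the 28, the proliferation antigen Mki67 averaged 1.92 ± 0.830 FPKM in AngII and 0.853 ± 0.269 in AngII plus OA (difference -0.62, 95% interval -1.05 to -0.19). Top2a, the topoisomerase that untangles replicated DNA, averaged 1.06 ± 0.464 and 0.433 ± 0.170 (-0.50, -0.81 to -0.19), and the kinase Cdk1 averaged 1.41 ± 0.592 and 0.557 ± 0.241 (-0.61, -1.004 to -0.21). For these 3 genes the groups overlapped. The most abundant members were not lower to this extent. Pttg1, the securin, averaged 34.6 ± 2.41 FPKM in AngII and 39.8 ± 4.01 in AngII plus OA (0.20, -0.01 to 0.40), and the replication clamp Pcna averaged 18.4 ± 1.87 and 18.1 ± 0.838 (-0.01, -0.25 to 0.23).

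Promoters of mitotic genes often carry a CCAAT box, bound by NF-Y, and a cell cycle homology region such as TTTGAA. The upstream windows of Cdc20, Cdkn3, Ckap2 and Nusap1, genes picked for their separation, were searched for both. Ccna2 and Tpx2 had no entry among the RefSeq promoters used and were not searched. The window of Nusap1 held neither motif, and it is not shown because it overlaps an exon of Oip5. The other 3 are shown. They come from RefSeq on GRCm38.p6, run 5′ to 3′ on the gene's strand, cover 120 bases and end 10 bases before the annotated start. Capitals mark CCAAT and TTTGAA on either strand, so that ATTGG and TTCAAA are the same letters read on the other strand.
Cdc20, chr4:118437354-118437473, minus strand: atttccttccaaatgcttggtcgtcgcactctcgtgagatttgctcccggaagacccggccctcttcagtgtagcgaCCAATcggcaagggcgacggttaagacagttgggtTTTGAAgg
Cdkn3, chr14:46760411-46760530, plus strand: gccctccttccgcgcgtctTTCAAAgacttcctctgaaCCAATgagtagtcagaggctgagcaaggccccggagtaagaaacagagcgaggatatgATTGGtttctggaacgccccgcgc
Ckap2, chr8:22185830-22185949, minus strand: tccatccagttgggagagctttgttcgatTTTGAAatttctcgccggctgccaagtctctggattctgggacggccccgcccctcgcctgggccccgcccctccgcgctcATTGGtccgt
In Cdc20 the CCAAT lay 53 bases and the TTTGAA 18 bases before the start, both on the gene's strand. Cdkn3 held CCAAT 92 bases before the start and, on the other strand, 34 bases before it, with TTTGAA 111 bases before it on the other strand. Ckap2 held CCAAT 20 bases before the start on the other strand and TTTGAA 101 bases before it. Only in Cdc20 did TTTGAA lie nearer the start than CCAAT. Of 32851 RefSeq windows of the same length, 21.4% held CCAAT, 7.26% held TTTGAA and 1.55% held both, and the 2 motifs share no overlapping letters in these 3 windows. The letters describe the windows only, and binding was not measured.

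Basement membrane genes were lower in mean with OA, and both chains of collagen IV separated. The collagen IV chains Col4a1 and Col4a2, neighbouring genes read in opposite directions, assemble into the sheet under endothelium and around cardiomyocytes. Col4a1 (ENSMUSG00000031502) read 125, 78.2, 94.98, 120 and 120 FPKM in AngII and 56.6, 67.7, 71.5, 77.2 and 37.1 in AngII plus OA. Col4a2 (ENSMUSG00000031503) read 91.6, 67.2, 68.8, 97.2 and 101 FPKM in AngII and 42.6, 58.9, 52.2, 67.0 and 30.3 in AngII plus OA. The lowest AngII library, replicate 2, lay only just above the highest AngII plus OA library, replicate 4, for both chains. The differences were -0.81 (95% interval -1.24 to -0.37) and -0.78 (-1.20 to -0.36), beside 0.90 and 0.90 for AngII against vehicle, where both genes were called higher by limma (adjusted p = 0.0388 and 0.0348).

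Sparc, a secreted collagen-binding glycoprotein needed for collagen to be laid down, had the highest mean FPKM of the basement membrane list. Sparc (ENSMUSG00000018593) read 338, 200, 226, 354 and 409 FPKM in AngII and 168, 168, 181, 219 and 118 in AngII plus OA. AngII replicate 2 overlapped AngII plus OA replicate 4, and the other libraries were apart. The difference was -0.81 (95% interval -1.23 to -0.39, limma unadjusted p = 0.000943, adjusted p = 0.706), -0.95 without AngII replicate 2 and -0.68 without AngII plus OA replicate 5. Against vehicle, AngII was higher by 1.17 (limma adjusted p = 0.0138) and AngII plus OA by 0.36. Of 21 basement membrane genes tested, 19 had a lower mean with OA, 5 of them at an unadjusted p under 0.05, where 5.25% of all genes were. The median was -0.20, beside -0.32 when AngII replicate 2 and -0.13 when AngII plus OA replicate 5 was left out. The others of the 5 were Col18a1, the source of endostatin (2.67 ± 0.549 FPKM in AngII, 1.84 ± 0.634 in AngII plus OA), and the linker protein Nid2 (4.88 ± 1.07 and 3.66 ± 0.605).

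**Figure D2:**
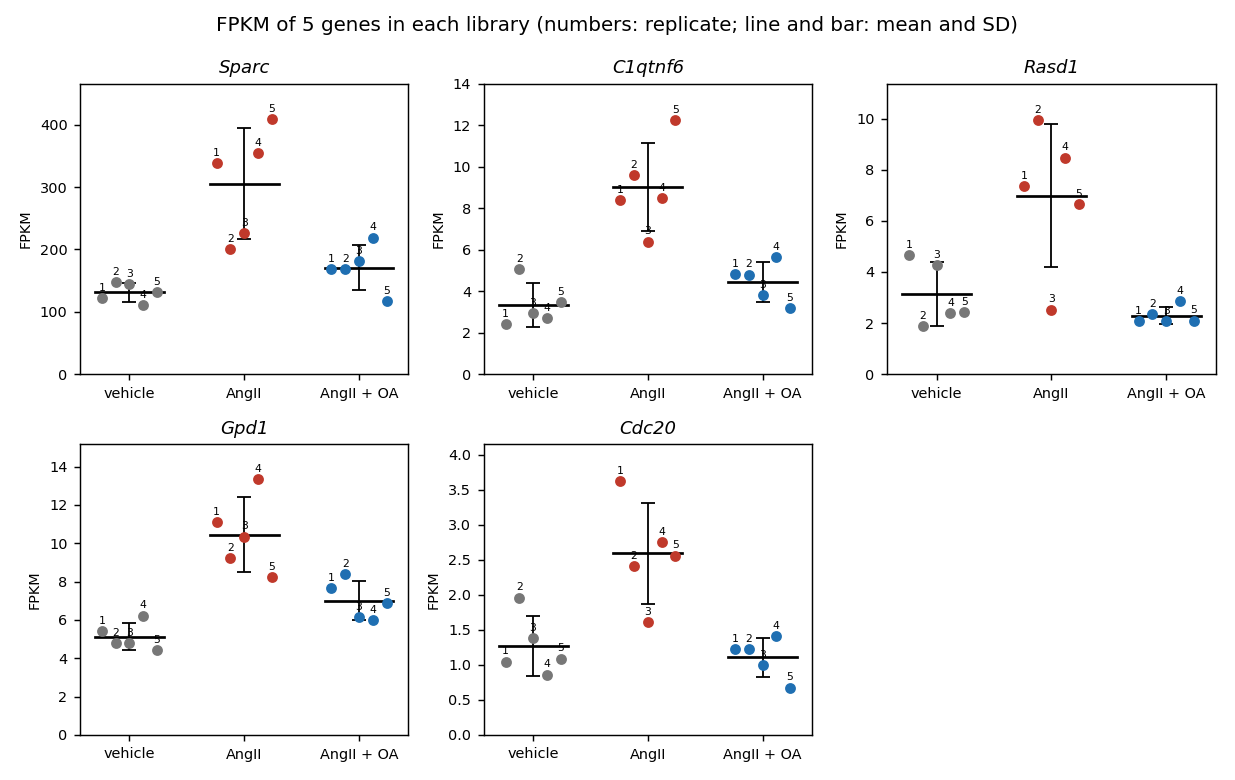
FPKM (linear axis from 0) of the 5 genes given for this comparison in each of the 15 libraries; points carry the replicate number, lines are group means and bars are SD. For C1qtnf6 and Cdc20 the AngII and AngII plus OA libraries do not overlap, while for Sparc, Rasd1 and Gpd1 the lowest AngII library lies below the highest AngII plus OA library.

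The fibrillar collagens carry the tensile strength of scar. Col1a1 read 40.5, 17.1, 26.8, 32.7 and 59.1 FPKM in AngII and 19.0, 24.02, 18.8, 27.6 and 8.05 in AngII plus OA. Col3a1 read 71.1, 65.2, 48.9, 82.2 and 165 FPKM in AngII and 46.1, 46.5, 42.5, 50.8 and 20.2 in AngII plus OA. Both overlapped between the groups, and AngII replicate 5 was the highest and AngII plus OA replicate 5 the lowest of the 10 libraries for both. The differences were -0.81 (95% interval -1.45 to -0.17) and -0.99 (-1.62 to -0.35), with limma adjusted p = 0.7097 and 0.706. For Col1a1 it was -0.54 without AngII plus OA replicate 5. Of 30 genes of fibrillar collagens and their processing 25 were tested, and 23 had a lower mean with OA and 2 a higher one. At an unadjusted p under 0.05 were 11 of the lower ones and 1 of the higher ones, beside 5.25% and 1.35% of all genes. The list median of -0.32 became -0.51 without AngII replicate 2 and -0.27 without AngII plus OA replicate 5. The procollagen N-proteinase Adamts2 had the smallest p, with 5.95 ± 1.51 FPKM in AngII and 3.65 ± 0.802 in AngII plus OA (-0.57, 95% interval -0.89 to -0.26). Serpinh1, the collagen chaperone and most abundant member, averaged 222 ± 94.3 and 172 ± 36.2 FPKM (-0.22, -0.94 to 0.50), and its lowest AngII value was 63.6 in replicate 2. The cross-linking enzyme Lox read 70.0 FPKM in AngII replicate 2 and 5.45 to 32.1 in the other AngII libraries, against 2.86 to 11.8 in AngII plus OA (-1.28, -2.41 to -0.16), and the difference was -0.76 without AngII replicate 2. P3h4, a partner of collagen lysyl hydroxylase, was the higher one, with 10.5 ± 0.887 FPKM in AngII and 12.6 ± 1.81 in AngII plus OA (0.23, 0.00 to 0.45).

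**Figure D3:**
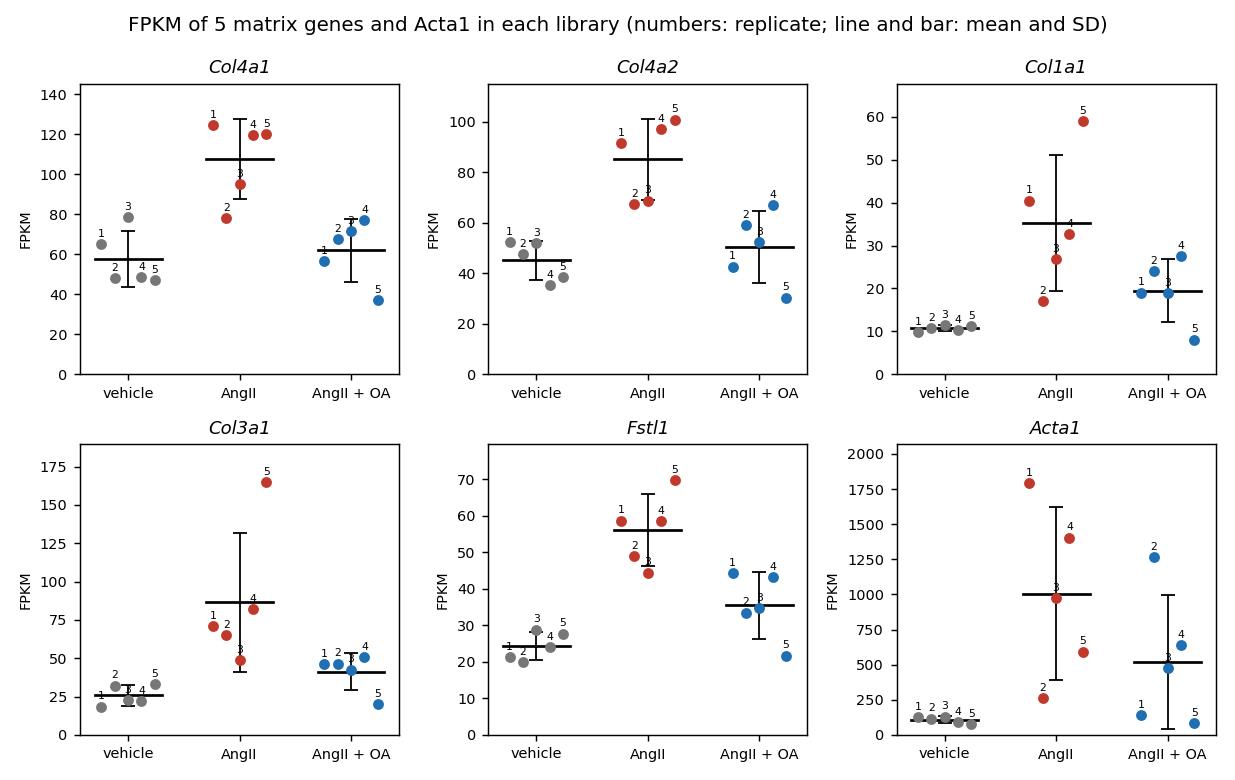
FPKM (linear axis from 0) of Col4a1, Col4a2, Col1a1, Col3a1, Fstl1 and Acta1 in each of the 15 libraries; points carry the replicate number, lines are group means and bars are SD. AngII plus OA replicate 5 is the lowest of the 5 AngII plus OA libraries in every panel, at 8.05 FPKM for Col1a1 and 85.8 for Acta1.

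Matricellular and microfibril proteins, which tune how cells attach to matrix and scaffold elastic fibres, all had a lower mean with OA. Of 32 listed 26 were tested, of which 13 had an unadjusted p under 0.05, where 5.25% of all genes were lower at that p. Groups that did not overlap were seen for 0 of them, beside 1.04% of all genes on the lower side. The list median of -0.64 became -0.54 without AngII replicate 2 and -0.59 without AngII plus OA replicate 5. It ran from -0.76 to -0.46 with 1 library of the 2 groups left out in turn. Fbn1, the fibrillin of microfibrils, averaged 10.7 ± 3.05 FPKM in AngII and 6.08 ± 1.38 in AngII plus OA (-0.70, 95% interval -1.10 to -0.30), and fibronectin, Fn1, averaged 9.32 ± 3.38 and 5.39 ± 0.771 (-0.64, -1.03 to -0.25). For some members AngII replicate 5 was far above the rest. Postn, periostin of activated fibroblasts, read 153 FPKM there and 29.8 to 52.1 in the other AngII libraries, against 11.4 to 41.4 in AngII plus OA (-0.92, -1.75 to -0.10). Its difference was -0.57 without that library and -0.60 without AngII plus OA replicate 5. Thbs4 read 163 FPKM there and 13.9 to 27.7 in the others, against 2.60 to 20.7 (-1.35, -2.58 to -0.12), and its difference was -0.76 without AngII replicate 5. Cilp, a matrix protein of cartilage and stressed heart, read 112 FPKM there and 19.98 to 37.8 in the others, against 5.64 to 36.3 (-1.11, -2.03 to -0.19), and its difference was -0.74 without either replicate 5. Ccn2, a growth factor-like matricellular protein, averaged 148 ± 132 and 83.1 ± 20.9 FPKM (-0.47, -1.42 to 0.48). Its mean in AngII was carried by 374 FPKM in replicate 2, and the difference was -0.04 without it, -0.76 without AngII replicate 3 and 0.22 without AngII replicates 2 and 4.

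Other matrix regulators were lower in mean as well. Fstl1, a secreted glycoprotein that binds TGF-beta family ligands, read 58.7, 48.9, 44.5, 58.5 and 69.8 FPKM in AngII and 44.4, 33.5, 34.8, 43.2 and 21.7 in AngII plus OA. The groups did not overlap, though AngII replicate 3 and AngII plus OA replicate 1 were nearly level. The difference was -0.67 (95% interval -1.05 to -0.28), beside 1.17 for AngII against vehicle (limma adjusted p = 0.0114). Of 28 tested TGF-beta ligands, receptors and modulators (30 listed), 25 had a lower mean with OA, with a median of -0.22. Of these 6 had an unadjusted p under 0.05, where 5.25% of all genes did. Pmepa1, a feedback inhibitor of TGF-beta signalling, averaged 11.9 ± 1.78 FPKM in AngII and 8.53 ± 1.35 in AngII plus OA (-0.43, -0.71 to -0.16), while the ligand Tgfb1 averaged 7.94 ± 2.92 and 6.26 ± 0.864 (-0.23, -0.69 to 0.22). The Tgfb1 difference was -0.44 without AngII replicate 2, and it was -0.14 and -0.12 when AngII replicates 1 and 4 were left out in turn. Of 9 tested small leucine-rich proteoglycans (11 listed) 8 were lower in mean (median -0.25), led by biglycan, Bgn, with 127 ± 29.1 and 79.8 ± 23.96 FPKM (-0.69, -1.14 to -0.24). Dcn, decorin, the most abundant of them, averaged 660 ± 207 and 554 ± 168 (-0.25, -0.81 to 0.30). Of 17 tested metalloproteinases and inhibitors (22 listed) 15 were lower (median -0.17). Mmp2, a gelatinase, averaged 51.8 ± 16.4 and 30.1 ± 9.45 FPKM (-0.77, -1.26 to -0.29). Timp1, an inhibitor of these enzymes, read 97.9 FPKM in AngII plus OA replicate 2 and 9.79 to 27.6 in the other AngII plus OA libraries, against 24.4 to 59.8 in AngII (-0.94, -2.0001 to 0.11), and the difference was -1.45 without AngII plus OA replicate 2. Tgm2, a transglutaminase that cross-links matrix proteins, read 40.63 to 72.7 FPKM in AngII and 30.4 to 40.57 in AngII plus OA (-0.52, -0.84 to -0.21), and the highest AngII value was again in replicate 2.

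C1qtnf6 belongs to the C1q/TNF-related proteins, secreted relatives of adiponectin. C1qtnf6 (ENSMUSG00000022440) read 8.38, 9.61, 6.39, 8.51 and 12.2 FPKM in AngII and 4.82, 4.80, 3.80, 5.63 and 3.19 in AngII plus OA. The groups did not overlap, and vehicle lay at 2.43 to 5.07. The difference was -0.87 (95% interval -1.25 to -0.50, limma unadjusted p = 0.000163, adjusted p = 0.574), -0.85 without AngII replicate 2 and -0.78 without AngII plus OA replicate 5. Against vehicle, AngII was higher by 1.22 (limma adjusted p = 0.0114) and AngII plus OA by 0.34. Of 11 tested members of the family and adiponectin receptors (13 listed), 8 were lower in mean with OA and 3 higher, with a median of -0.18, which was -0.11 without AngII plus OA replicate 5. The receptor Adipor2 also separated, with 16.8 ± 2.41 FPKM in AngII and 12.3 ± 1.38 in AngII plus OA (-0.41, -0.67 to -0.15). The most abundant members overlapped between the groups. C1qtnf9, made by cardiac endothelium, averaged 43.7 ± 18.3 and 41.5 ± 5.18 (0.07, -0.55 to 0.69), and Adipor1 averaged 28.8 ± 5.05 and 25.0 ± 2.10 (-0.18, -0.43 to 0.06).

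Rasd1, a small Ras-like G protein induced by glucocorticoids such as dexamethasone, was the only named gene called in any alternative. Rasd1 (ENSMUSG00000049892) read 7.37, 9.94, 2.53, 8.47 and 6.64 FPKM in AngII and 2.08, 2.35, 2.09, 2.85 and 2.09 in AngII plus OA. The AngII plus OA libraries were close together, and AngII replicate 3 lay among them. The difference was -1.19 (95% interval -1.74 to -0.64, limma unadjusted p = 0.000321, adjusted p = 0.574). Without AngII replicate 3 it was -1.46 and was called (limma adjusted p = 0.0177), and without AngII replicate 2 it was -1.05 and was not (adjusted p = 0.532). Vehicle libraries read 1.87 to 4.66 FPKM. Of 22 tested glucocorticoid-responsive genes (25 listed), 20 were lower in mean with OA. At an unadjusted p under 0.05, where 5.25% of all genes were, 2 of them were found (Rasd1 and the cell cycle inhibitor Cdkn1a, 81.0 ± 42.0 and 37.4 ± 16.0 FPKM). The list median of -0.43 became -0.18 without AngII replicate 2. The metal-binding protein Mt1, its most abundant member, read 2029 FPKM in that library and 345 to 728 in the other AngII libraries, against 248 to 658 in AngII plus OA. Of 26 immediate early genes, 18 were lower, beside 63.4% of all genes (median -0.11, -0.02 without AngII replicate 2), and after Rasd1 none had an unadjusted p under 0.05. Klf2, a flow-responsive factor, averaged 58.4 ± 19.96 and 51.5 ± 12.03 FPKM. Of 19 clock genes 11 were lower, and their median turned from -0.13 to 0.03 without AngII replicate 2.

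Genes of the renin-angiotensin system differed in both directions in mean. Mas1, the receptor of angiotensin-(1-7), was low throughout, with 10 to 74 reads per library. Mas1 read 0.188, 0.171, 0.392, 0.156 and 0.488 FPKM in AngII and 0.571, 0.620, 0.628, 0.935 and 1.081 in AngII plus OA. All AngII plus OA libraries were above all AngII libraries, and vehicle lay at 0.599 to 1.71. The difference was 0.46 (95% interval 0.17 to 0.76, limma adjusted p = 0.706). Ace, the converting enzyme, averaged 14.7 ± 1.71 and 10.8 ± 3.19 FPKM (-0.44, -0.82 to -0.06), and the AngII receptor Agtr1a averaged 5.69 ± 1.94 and 7.37 ± 0.864 (0.37, -0.01 to 0.75). Of the 12 genes tested (16 listed) 8 were lower in mean, near the 63.4% of all genes, and 4 higher. At an unadjusted p under 0.05 were 3 of the lower ones and 1 of the higher ones, beside 5.25% and 1.35% of all genes. The median of the 12 was -0.05, which turned positive after each library was shifted to 1 median. Agtr1a is named after its values were seen.

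Fetal and hypertrophic genes were mixed. Of 26 tested (28 listed), 9 were lower in mean with OA and 17 higher, with a median of 0.10 that ran from 0.03 without AngII plus OA replicate 2 to 0.18 without AngII replicate 4, and 1 had an unadjusted p under 0.05. That gene was Myh7, the slow myosin heavy chain, with 24.8, 20.03, 37.5, 34.9 and 42.5 FPKM in AngII and 49.7, 62.1, 28.7, 59.8 and 40.8 in AngII plus OA. The groups overlapped, and the difference was 0.58 (95% interval 0.11 to 1.05, limma adjusted p = 0.7102). Acta1, the skeletal actin of the fetal heart, read 1793, 260, 976, 1405 and 592 FPKM in AngII and 138, 1266, 476, 638 and 85.8 in AngII plus OA. AngII plus OA replicates 1 and 5 lay near the vehicle range of 74.4 to 129, whereas replicate 2 lay with the higher AngII libraries, and the difference was -1.27 (95% interval -2.63 to 0.09), or -0.78 without AngII plus OA replicate 5. Ankrd1, a stretch-responsive partner of titin, averaged 1098 ± 215 FPKM in AngII and 852 ± 367 in AngII plus OA (-0.44, -0.98 to 0.10), beside 354 ± 97.1 in vehicle. The Ankrd1 difference was -0.66 without AngII plus OA replicate 2 and -0.27 without AngII plus OA replicate 5. Nppa, atrial natriuretic peptide, read 585 FPKM in AngII replicate 2 and 40.7 to 97.3 in the other AngII libraries, against 24.7 to 76.4 in AngII plus OA (-1.23, -2.64 to 0.18), and the difference was -0.60 without AngII replicate 2. Nppb, brain natriuretic peptide, averaged 1073 ± 849 and 937 ± 206 FPKM (0.09, -0.78 to 0.96), and the sign of its difference turned without AngII replicate 1, 3 or 5 or AngII plus OA replicate 2. Reads of Myh7 and its neighbour Myh6, and of the actin genes, may not be told apart with certainty.

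**Figure D4:**
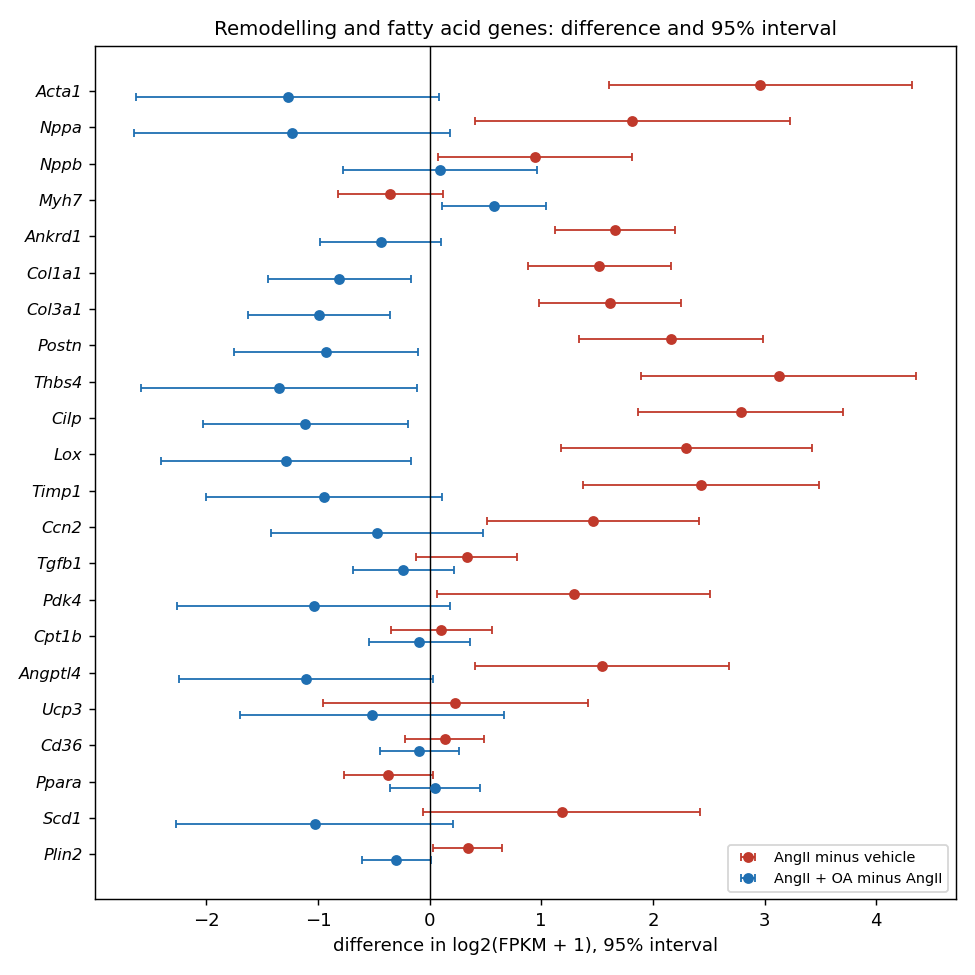
Points are differences in log2(FPKM + 1) of 22 remodelling and fatty acid genes with 95% intervals from limma; blue is AngII plus OA minus AngII and red is AngII minus vehicle, which share the AngII libraries. The blue interval excludes 0 on the low side for Col1a1, Col3a1, Postn, Thbs4, Cilp and Lox and on the high side for Myh7, and includes 0 for the other 15 genes.

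Genes of lipid handling were described because OA is itself a fatty acid. Gpd1, the cytosolic glycerol-3-phosphate dehydrogenase, links glycolysis to triglyceride synthesis. Gpd1 (ENSMUSG00000023019) read 11.1, 9.23, 10.3, 13.3 and 8.23 FPKM in AngII and 7.65, 8.41, 6.15, 5.98 and 6.86 in AngII plus OA. AngII replicate 5 and AngII plus OA replicate 2 overlapped, the others did not. Vehicle lay at 4.42 to 6.22, below every AngII library and overlapping the AngII plus OA group. The difference was -0.51 (95% interval -0.78 to -0.24, limma unadjusted p = 0.00106, adjusted p = 0.706), -0.54 without AngII replicate 2 and -0.50 without AngII plus OA replicate 5. Of 11 tested genes of glycerol-3-phosphate metabolism (12 listed), 5 were lower in mean and 6 higher, and the median was 0.00. Agpat1, the next acyltransferase of the pathway, averaged 17.1 ± 5.02 and 16.99 ± 1.35 FPKM (0.05, -0.34 to 0.45).

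Of 19 tested genes of fatty acid uptake and activation (20 listed), 8 were lower and 11 higher in mean and 0 had an unadjusted p under 0.05 (median 0.05, -0.09 without AngII replicate 2). The transporter Cd36 read 551, 354, 544, 426 and 435 FPKM in AngII and 512, 400, 461, 370 and 410 in AngII plus OA (-0.09, 95% interval -0.45 to 0.27). The binding protein Fabp3 averaged 3013 ± 670 and 3231 ± 236 FPKM (0.13, -0.20 to 0.46). Angptl4, a lipase inhibitor and PPAR target, read 28.7, 6.38, 9.96, 3.92 and 22.7 FPKM in AngII and 7.46, 11.9, 5.41, 2.22 and 1.68 in AngII plus OA, which overlapped (-1.11, -2.24 to 0.03). Pdk4, which blocks pyruvate entry into the citric acid cycle, averaged 158 ± 66.1 and 75.9 ± 32.2 FPKM (-1.03, -2.26 to 0.19), and the uncoupling protein Ucp3 averaged 20.03 ± 14.7 and 12.3 ± 9.17 (-0.52, -1.70 to 0.67). The Ucp3 difference ran from -0.89 without AngII replicate 4 to -0.21 without AngII replicate 1. The receptor Ppara averaged 0.926 ± 0.451 and 0.957 ± 0.143 (0.05, -0.35 to 0.45), a sign that turned without AngII replicate 5. The carnitine transferase Cpt1b averaged 2.61 ± 0.733 and 2.36 ± 0.531 (-0.09, -0.55 to 0.36). Of 25 tested PPAR and PGC-1 regulators and targets (28 listed), 13 were lower and 12 higher (median -0.05, positive after quantile normalization or shifting to 1 median). Their smallest p was that of the uncoupling protein Ucp2, with 17.4 ± 4.86 and 11.1 ± 1.96 FPKM (-0.58, -0.98 to -0.19).

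Storage and synthesis genes were given by the same rule. Of 23 tested lipid droplet and triglyceride genes (26 listed) 16 were lower, beside 63.4% of all genes (median -0.13, and -0.09 without AngII replicate 4). Plin2, which coats droplets, averaged 18.9 ± 4.50 and 14.9 ± 1.33 FPKM (-0.30, -0.61 to 0.01, and -0.19 without AngII replicate 2), and the phosphatidate phosphatase Lpin3 averaged 4.11 ± 1.44 and 2.44 ± 0.745 (-0.56, -1.01 to -0.11). Of 16 tested genes of fatty acid synthesis and desaturation (19 listed) 13 were lower (median -0.11, from -0.17 without AngII replicate 2 to -0.07 without AngII replicate 4), 0 at an unadjusted p under 0.05. The desaturase Scd1, which makes oleic acid, read 59.8 FPKM in AngII replicate 2 and 60.2 in replicate 4, 4.64 to 7.07 in the other AngII libraries and 4.95 to 9.60 in AngII plus OA. Its difference of -1.03 (95% interval -2.27 to 0.21) became -0.56 without replicate 2, -0.55 without replicate 4 and 0.23 without both libraries, which were also the ones with Ucp1 RNA. Of 24 tested cholesterol genes (28 listed) 15 were lower, near the 63.4% of all genes (median -0.04, positive after quantile normalization or shifting to 1 median). The HDL receptor Scarb1 averaged 4.35 ± 1.09 and 2.90 ± 0.456 FPKM (-0.44, -0.71 to -0.17).

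Most beta-oxidation genes and all listed nuclear subunits of oxidative phosphorylation were higher in mean with OA. Other genes of mitochondrial proteins, Ucp2, Ucp3, Pdk4 and Cpt1b above, were lower in mean. Ech1, an isomerase for unsaturated fatty acids in beta-oxidation, read 451, 319, 455, 479 and 412 FPKM in AngII and 652, 546, 499, 535 and 739 in AngII plus OA. The groups did not overlap, and the difference was 0.49 (95% interval 0.20 to 0.78, limma unadjusted p = 0.00264, adjusted p = 0.706), beside -0.47 for AngII against vehicle. Gstk1, a glutathione transferase of mitochondria and peroxisomes, read 29.3 to 43.6 FPKM in AngII and 44.3 to 58.8 in AngII plus OA (0.42, 0.18 to 0.67). Of 25 beta-oxidation genes 21 were higher in mean, 2 at an unadjusted p under 0.05, where 1.35% of all genes were. Their median of 0.18 became 0.06 without AngII replicate 2. Acadl, a long-chain acyl-CoA dehydrogenase, averaged 422 ± 47.0 and 475 ± 29.9 FPKM (0.18, -0.08 to 0.43). All 36 nuclear subunits of oxidative phosphorylation were higher in mean, by 0.08 to 0.35, and 3 had an unadjusted p under 0.05. Their median of 0.23 became 0.11 without AngII replicate 2, where the ventricular cardiomyocyte markers were also lowest. Cox7b, a cytochrome oxidase subunit, read 762, 805, 783, 795 and 708 FPKM in AngII and 942, 865, 917, 882 and 1022 in AngII plus OA, with no overlap (0.26, 0.04 to 0.49). The abundant Cox6a2 averaged 2804 ± 406 and 3580 ± 583 (0.35, -0.16 to 0.86). Glycolytic genes were divided, with 12 lower and 16 higher of 28 tested and 29 listed (median 0.05, -0.09 without AngII replicate 2), and Gapdh averaged 935 ± 117 and 857 ± 63.9 FPKM (-0.12, -0.41 to 0.17).

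Calcium handling and ion channel genes were also mostly higher in mean, 23 of 27, with a median of 0.19 (0.12 without AngII replicate 2). The potassium channel subunit Kcnv2 had the smallest p, with 1.57 ± 0.659 FPKM in AngII and 3.00 ± 1.30 in AngII plus OA (0.64, 95% interval 0.19 to 1.08). The muscle chloride channel Clcn1 separated, at 0.292 to 0.881 FPKM in AngII and 0.888 to 1.73 in AngII plus OA (0.49, 0.07 to 0.92). Pln, phospholamban, averaged 1236 ± 490 and 1608 ± 227 FPKM (0.46, -0.08 to 0.996), and the calcium pump Atp2a2 averaged 727 ± 263 and 785 ± 137 (0.17, -0.38 to 0.71). AngII replicate 2 had the lowest Kcnv2 and Pln values of the 10 libraries.

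**Figure D5:**
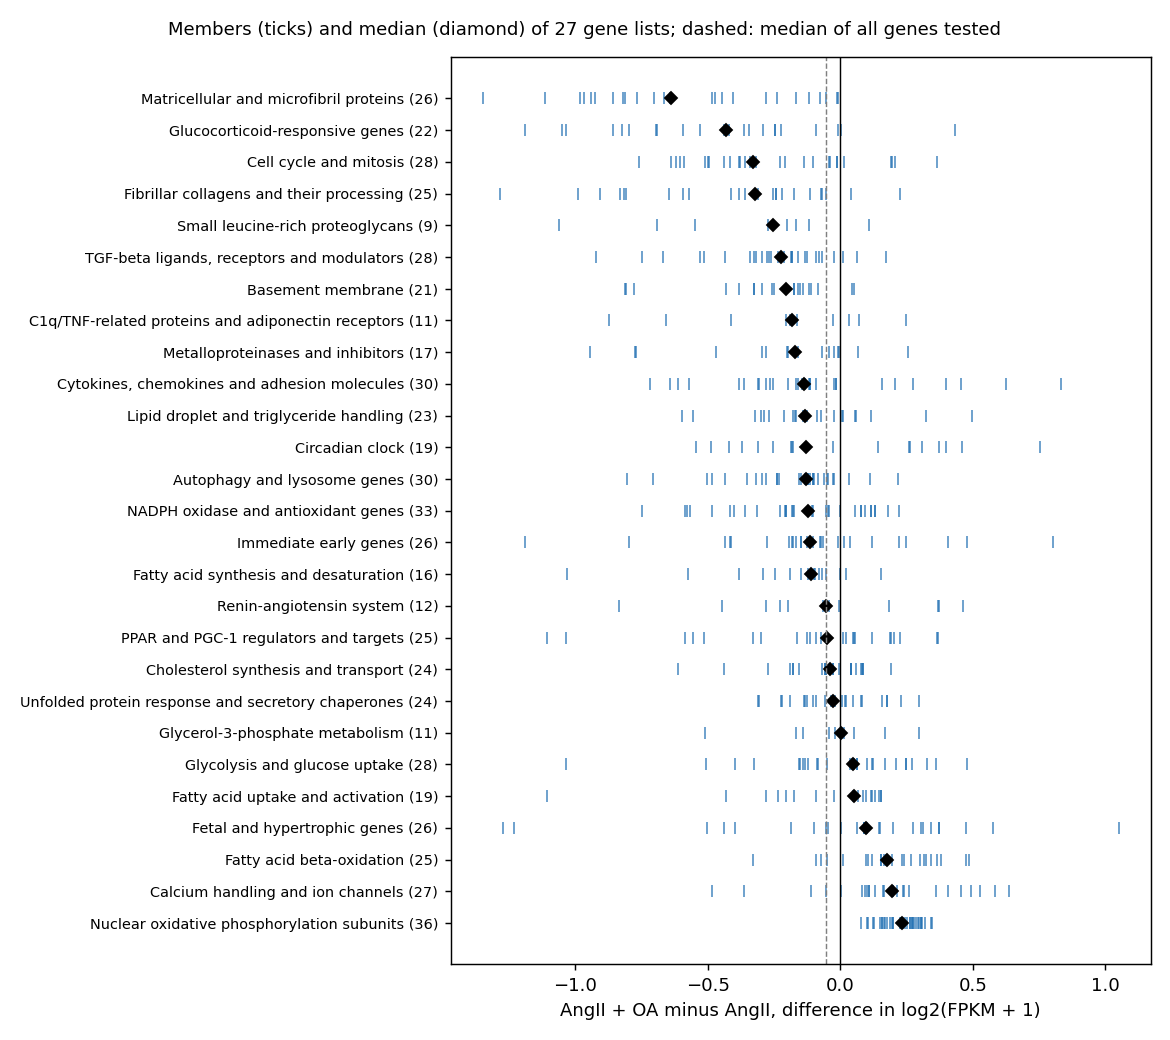
Each row is 1 of 27 gene lists with the number of members tested in brackets; ticks are members, the diamond is the list median and the x axis is AngII plus OA minus AngII in log2(FPKM + 1), with the median of all genes (-0.05) dashed. Medians run from -0.64 for matricellular and microfibril proteins to 0.23 for nuclear oxidative phosphorylation subunits.

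Stress and immune lists lay nearer the median of all genes. Of 33 tested NADPH oxidase and antioxidant genes (34 listed) 22 were lower in mean with OA, near the 63.4% of all genes. Their median was -0.12, from -0.19 without AngII plus OA replicate 4 to -0.08 without AngII replicate 1. Of the lower ones 6 had an unadjusted p under 0.05, where 5.25% of all genes did. They were led by extracellular superoxide dismutase Sod3 with 18.2 ± 2.86 and 13.6 ± 2.44 FPKM (-0.40, 95% interval -0.67 to -0.14). Sod1, its cytosolic relative, averaged 488 ± 69.1 and 535 ± 70.1 (0.13, -0.18 to 0.45). Of 30 autophagy and lysosome genes 27 were lower, beside 63.4% of all genes (median -0.13). At an unadjusted p under 0.05 were 6 of them, beside 5.25% of all genes. They were led by the collagen-degrading cathepsin Ctsk with 10.1 ± 4.25 and 5.29 ± 2.04 FPKM (-0.80, -1.36 to -0.25). Map1lc3a, an autophagosome protein, averaged 261 ± 16.9 and 306 ± 47.8 (0.22, -0.09 to 0.52). Of 30 tested cytokines, chemokines and adhesion molecules (37 listed) 23 were lower, beside 63.4% of all genes, and 3 of them had an unadjusted p under 0.05. Their median was -0.14, from -0.21 without AngII plus OA replicate 4 to -0.07 without AngII replicate 4. The T cell chemoattractant Ccl5 averaged 4.02 ± 1.85 and 1.94 ± 0.796 FPKM (-0.72, -1.23 to -0.20), whereas Cxcl12 averaged 21.6 ± 6.41 and 27.7 ± 3.49 (0.40, -0.01 to 0.81). Of 24 genes of the unfolded protein response and secretory chaperones 13 were lower (median -0.03, positive after quantile normalization or shifting to 1 median). P4hb, the disulfide isomerase that is also a subunit of collagen prolyl hydroxylase, read 92.9 to 109 FPKM in AngII and 79.2 to 89.9 in AngII plus OA, with no overlap (-0.22, -0.41 to -0.04), while the chaperone Hspa5 averaged 147 ± 51.2 and 170 ± 24.4 (0.30, -0.26 to 0.86).

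Among the separated genes outside these lists, Trim59, a ubiquitin ligase of the TRIM family, had the smallest p of all genes. Trim59 read 1.81, 1.54, 1.13, 1.24 and 1.46 FPKM in AngII and 0.481, 0.853, 0.859, 0.562 and 0.639 in AngII plus OA. The difference was -0.54 (95% interval -0.75 to -0.32, limma unadjusted p = 7.13e-05, adjusted p = 0.574), beside 0.60 for AngII against vehicle. The amino acid transporter Slc7a8, the liprin Ppfibp1 and the little-described AI837181 and 1700020L24Rik were lower in every AngII plus OA library than in any AngII library, with differences of -0.37, -0.40, -0.33 and -0.41. On the higher side, the noncoding BB218582 read 5.80 to 7.28 FPKM in AngII and 8.20 to 11.8 in AngII plus OA (0.52, 0.28 to 0.76), beside 10.6 to 14.2 in vehicle. Dnaaf3, a factor that assembles dynein arms of cilia, read 1.11 to 2.39 and 2.50 to 3.40 FPKM (0.51, 0.25 to 0.78). Gm4956 and Gm14508 differed by 0.50 and 0.28 and rested on 9 to 63 reads per library. The precursor Mir133a-1 read 7.17 to 18.4 and 19.4 to 31.3 FPKM (1.12, 0.52 to 1.72) on 12 to 55 reads, in libraries selected for poly(A), so its value is not that of the mature miRNA.

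Markers of cell types were measured in the same way. Endothelial markers were lower in mean with OA for 12 of 13, with a median of -0.29. Of these 4 had an unadjusted p under 0.05, where 5.25% of all genes did. The tight junction protein Cldn5 read 87.6, 40.0, 36.3, 180 and 43.7 FPKM in AngII and 22.3, 26.7, 19.4, 41.2 and 21.8 in AngII plus OA. AngII replicate 4 was far above the rest, and AngII plus OA replicate 4 overlapped the AngII group. The difference was -1.29 (95% interval -2.06 to -0.51), -0.91 without AngII replicate 4 and -1.01 without AngII replicates 2 and 4. The VEGF receptor Flt1 did not overlap, at 15.6 to 18.3 FPKM in AngII and 10.2 to 15.0 in AngII plus OA. The summed endothelial FPKM was 730 to 1204 in AngII and 677 to 919 in AngII plus OA. Fibroblast markers were lower for 10 of 13 (median -0.20, and -0.32 without AngII plus OA replicate 1), with sums of 1508 to 2115 and 1115 to 2258. Pi16, of adventitial fibroblasts, averaged 61.7 ± 17.6 and 40.5 ± 10.6 FPKM (-0.60, -1.01 to -0.18), and Gsn averaged 565 ± 82.6 and 627 ± 181 (0.11, -0.33 to 0.55). Macrophage markers were lower for 12 of 15 (median -0.23), with sums of 508 to 739 and 385 to 642. At an unadjusted p under 0.05 were 4 of the 13 fibroblast and 2 of the 15 macrophage markers, all lower, beside 5.25% of all genes. Defining markers of these cells were present in every group, and their part in the matrix and cell cycle differences was not tested. Ventricular cardiomyocyte markers had a median of 0.21, which was 0.03 without AngII replicate 2. Atrial, adipocyte, mesothelial and B cell markers had medians of -0.46, -0.47, -0.34 and -0.46, which became 0.46, -0.08, 0.23 and -0.06 without that library. The neutrophil median of -0.49, over 4 tested markers, became -0.07 without AngII replicate 2 and -1.02 without AngII plus OA replicate 5.

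The AngII group also varied more than the AngII plus OA group. The median SD of log2(FPKM + 1) was 0.255 in AngII, 0.164 in AngII plus OA and 0.204 in vehicle. The SD was larger in AngII than in AngII plus OA for 10137 genes (77.3%), and for 7586 (57.8%) without AngII replicate 2. Mitochondrially encoded genes took 34.5% to 48.3% of the FPKM in AngII and 38.6% to 47.0% in AngII plus OA, a share that enters the FPKM of every other gene.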

How the data were processed

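RNA from mouse ventricle was sequenced in 15 libraries, 5 per group, after poly(A) selection, per the labels' protocols. The authors deposited 1 table of FPKM values per gene and library, whose columns are named for the sample titles. Alignment with HISAT2 2.0.4 to a build named mm8 is recorded per the submitters' processing notes. Neither the counter nor the strand setting nor the gene models are given in the sources used here, so reads of overlapping, opposite-strand or near-identical genes may be shared. Of 36653 identifiers, 36464 had a symbol in GENCODE M21, and promoter sequences were taken from RefSeq on GRCm38.p6, another build than the one named.

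Genes that averaged at least 0.5 FPKM were tested by limma (version 3.58.1, R 4.3.3) after adding 1 to the FPKM and taking log2, with a trend in the variance prior and group as the only term in 1 fit of all 15 libraries. Tests were 2-sided, with Benjamini-Hochberg adjustment per comparison over all genes tested and a threshold of 0.05. The fit was also run on simulated data with known changes, and its outcome is not given here, so no result above rests on it. Whole reads were recovered from the FPKM for 99.997% of the 28996 genes above 0, within a tolerance of 0.02, by a search for each gene's length, and for 86.3% with the reference length. The median was 57.1 reads per library for genes averaging 0.5 to 1 FPKM. All replicates differed by more than counting noise, with a chi-square of at least 30.7 per degree of freedom.

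The genes and lists were chosen with earlier results of these data known. Named genes were the 5 given for the comparison, up to 24 genes with the smallest p among those whose groups did not overlap (0 being called), 22 fixed remodelling and fatty acid genes, and for each list the member with the smallest p and the most abundant ones. Others are named after their values were seen: Agtr1a, Clcn1, Flt1, P3h4, Pmepa1 and Ucp1. Lists that hold 1 of the 5 given genes could have any member named. Alternatives covered the pseudocount, the filter, scaling, array weights, a replicate block and each library left out. Of the genes selected for separation, 1 is not reported here.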

Additional observations from a re-analysis of the deposited data

Results flagged for a closer look

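In each group of 5 libraries, a value was looked at again when its gap to the nearest other library was over 0.71 of the group's range. Of 147 groups over the 49 named genes, 11 held such a value, and chance alone marks about 1 in 20 groups. AngII replicate 5 held 4 of them, at the top of its group: Col3a1 at 165 FPKM, Postn at 153, Thbs4 at 163 and Cilp at 112. AngII replicate 2 held the highest Nppa, 585 FPKM, and the highest Tgm2, 72.7 FPKM. In AngII plus OA, Col3a1 was lowest in replicate 5 at 20.2 FPKM and Timp1 highest in replicate 2 at 97.9 FPKM. In vehicle, Nusap1 stood highest in replicate 2 at 1.06 FPKM, 1700020L24Rik lowest in replicate 4 at 0.356 FPKM and Ech1 lowest in replicate 5 at 505 FPKM.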

How the results depend on the processing

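Of 22 alternatives, 21 called 0 genes for AngII plus OA against AngII. Leaving out 1 library gave 0 to 1 called genes, the 1 being Rasd1 without AngII replicate 3 (log2 difference -1.46, limma adjusted p = 0.0177). Of 49 named genes, 45 kept their sign in every alternative. Nppb ran from -0.13 to 0.47 with 1 library left out and turned to -0.13, -0.09, -0.03 and -0.01 without AngII replicates 1, 3 and 5 and AngII plus OA replicate 2. Ppara ran from -0.045 to 0.16 and turned without AngII replicate 5. Ccn2 turned to 0.017 with array weights and to 0.22 without AngII replicates 2 and 4, where Scd1 turned to 0.23. The cause was not tested. List medians near 0 crossed it when 1 library was left out: they ran from -0.09 to 0.08 for fatty acid uptake, -0.10 to 0.04 for PPAR targets, -0.10 to 0.02 for cholesterol genes and -0.12 to 0.03 for glycerol-3-phosphate metabolism. The ranges were -0.09 to 0.14 for glycolysis, -0.21 to 0.03 for immediate early genes, -0.16 to 0.03 for clock genes and -0.12 to 0.04 for the unfolded protein response. The medians ran from 0.06 to 0.28 for beta-oxidation and -0.10 to -0.02 for the renin-angiotensin system. Genes at an unadjusted p under 0.05 numbered 480 to 1424 with 1 library left out and 1410 with array weights. Leaving out AngII replicates 2 and 4, leaving out AngII replicate 2 with AngII plus OA replicate 5, and voom were added after the data had been seen.

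A replicate block called 0 genes, with 832 at an unadjusted p under 0.05. Same-numbered AngII and AngII plus OA libraries correlated at -0.04, -0.22, 0.43, 0.34 and -0.16 in their deviations from the group means, so the numbers were not taken to pair the mice. Count tests with edgeR and DESeq2 were planned and were not run. The deposited values are FPKM, and limma voom on reads recovered from them was added instead. Genes near 0.5 FPKM rest on few reads, which limits what can be seen for the mitotic genes.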
